A study of Homo sapiens with 4 samples.

Results

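The long arm of chromosome 1 (1q) held 21573 of the 149858 accessible regions that ATAC-seq mapped in MCF10A cells with and without active TAZ. The members were chosen by position: overlapping or touching peaks of both conditions were merged, and every merged region on chromosome 1 that starts at or above 143000000 (hg38) was taken. The first member, a region open in both conditions with a fold of 13.8, starts at 143194506, the last ends at 248945799, and the nearest region before the bound ends at 125180416. The arm was picked because its density of regions was already known to stand out, so density is given as a description with no test. The cells were MCF10A, a non-transformed human mammary epithelial line, transduced with a tet-inducible TAZ-4SA, a constitutively active form of the Hippo pathway effector TAZ. The Dox cells received 0.05 µg/mL doxycycline for 72 h to switch the transgene on, and the No Dox cells carried the same construct and received none. There were 2 biological replicates per condition with 50000 cells per reaction, and the authors pooled them into 1 peak list per condition. No spread between replicates can therefore be given, the read depth behind the lists is unknown, and all 95% intervals cover counting error only and are too narrow where neighbouring regions are not independent. A region was called Dox-only when only the Dox list had a peak in it, No-Dox-only when only the No Dox list had one, and shared when both did. Fold is the authors' enrichment of a peak over background, a ratio without unit, and a region takes the fold of its highest peak. The transgene and the doxycycline itself cannot be told apart in this design.

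In ATAC-seq a transposase inserts adapters where DNA is not wrapped in nucleosomes, so peaks mark promoters, enhancers and other open chromatin. TAZ has no DNA-binding domain of its own and reaches DNA through TEAD factors, often at enhancers that also bind AP-1. 1q carries the epidermal differentiation complex, clusters of Fc receptor and complement genes, many cell cycle genes and, near its end, olfactory receptor genes, and extra copies of this arm are common in breast cancer and have been described in MCF10A cells. Copy number was not measured here.

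The epithelial label was checked on promoters. Among 8 markers of mammary epithelium, the promoters of KRT5, KRT17, CDH1, ITGA6, ITGB4 and EPCAM had peaks in both lists, TP63 had one with Dox alone, and KRT14 had none. PTPRC and CD3E (blood), PECAM1 and CDH5 (endothelium) and COL3A1 (fibroblasts) had no promoter peak in either list. Immune genes of 1q did have promoter peaks in part, as given with their list below, so a promoter peak alone does not mark a cell type here.

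Sequences at the summits show what the 2 kinds of condition-specific region on 1q can look like, in 151 bp of hg38 (plus strand) centred on the summit. The first set holds Dox-only regions of high fold with a TEAD motif, ACATTCC or GCATTCC on either strand (GGAATGT or GGAATGC when read on the opposite one), and the motif is in capitals.
Near POGK, chr1:166814748-166814898: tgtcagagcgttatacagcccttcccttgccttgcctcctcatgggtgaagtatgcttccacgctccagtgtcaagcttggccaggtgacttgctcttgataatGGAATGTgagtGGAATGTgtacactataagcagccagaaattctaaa
Inside RASAL2, chr1:178267763-178267913: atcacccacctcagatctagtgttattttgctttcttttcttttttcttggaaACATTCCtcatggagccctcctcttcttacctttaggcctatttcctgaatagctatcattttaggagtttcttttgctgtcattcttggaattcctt
The region named after POGK, its nearest coding gene, carries the motif at 2 places and had a fold of 27.8, above every other Dox-only region of the arm. The region inside RASAL2 had a fold of 13.8. The region near POGK lies outside coding genes.

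The No-Dox-only region of highest fold with an AP-1 motif, TGACTCA or TGAGTCA on either strand, is shown for contrast, with that motif in capitals.
Near LYPLAL1, chr1:218945209-218945359: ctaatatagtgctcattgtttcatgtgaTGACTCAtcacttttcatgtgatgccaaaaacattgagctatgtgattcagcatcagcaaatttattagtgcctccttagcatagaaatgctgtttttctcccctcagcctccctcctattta
Its fold was 13.1, and it lies outside coding genes, 229 kb from the TSS of LYPLAL1, the nearest coding one.

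A region closer to the usual member is the No-Dox-only region of median fold in the 5 Mb window of the arm with the lowest Dox-only share.
Near CHRM3, chr1:239322004-239322154: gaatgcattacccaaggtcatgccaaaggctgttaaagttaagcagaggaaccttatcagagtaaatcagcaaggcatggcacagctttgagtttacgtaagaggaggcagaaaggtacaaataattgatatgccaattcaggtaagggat
This sequence holds no TEAD motif. Its fold was 3.60, below the median of 3.81 over the No Dox list, its GC content was 41.7%, and it lies outside coding genes.

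1q held more regions per Mb than 1p or any other chromosome taken whole. It makes up 3.63% of the sequenced genome and carried 14.4% of all regions, or 204 per Mb over 105.7 Mb. The rest of chromosome 1, taken as everything before the peak-free stretch of 18.0 Mb that precedes the first member and called 1p here although it may reach past the centromere, had 49.4 per Mb over 124.8 Mb, and the other chromosomes had 45.6 per Mb. The ratio of 1q over 1p was 4.13 (4.02 to 4.25), and over the other chromosomes 4.48 (4.42 to 4.55). Chromosomes 5 and 8 came next, with 88.7 and 86.1 regions per Mb. In the Dox list 13834 peaks, 16.4% of the list, lay on 1q, and in the No Dox list 16479 peaks, 14%. The ratio of 1q over 1p was 4.33 (4.18 to 4.49) for Dox peaks and 4.24 (4.10 to 4.38) for No Dox peaks. Over the other chromosomes it was 5.26 (5.17 to 5.36) for Dox peaks and 4.33 (4.26 to 4.40) for No Dox peaks, so the arm stood out in both lists and more in the Dox list on that scale.

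**Figure D1:**
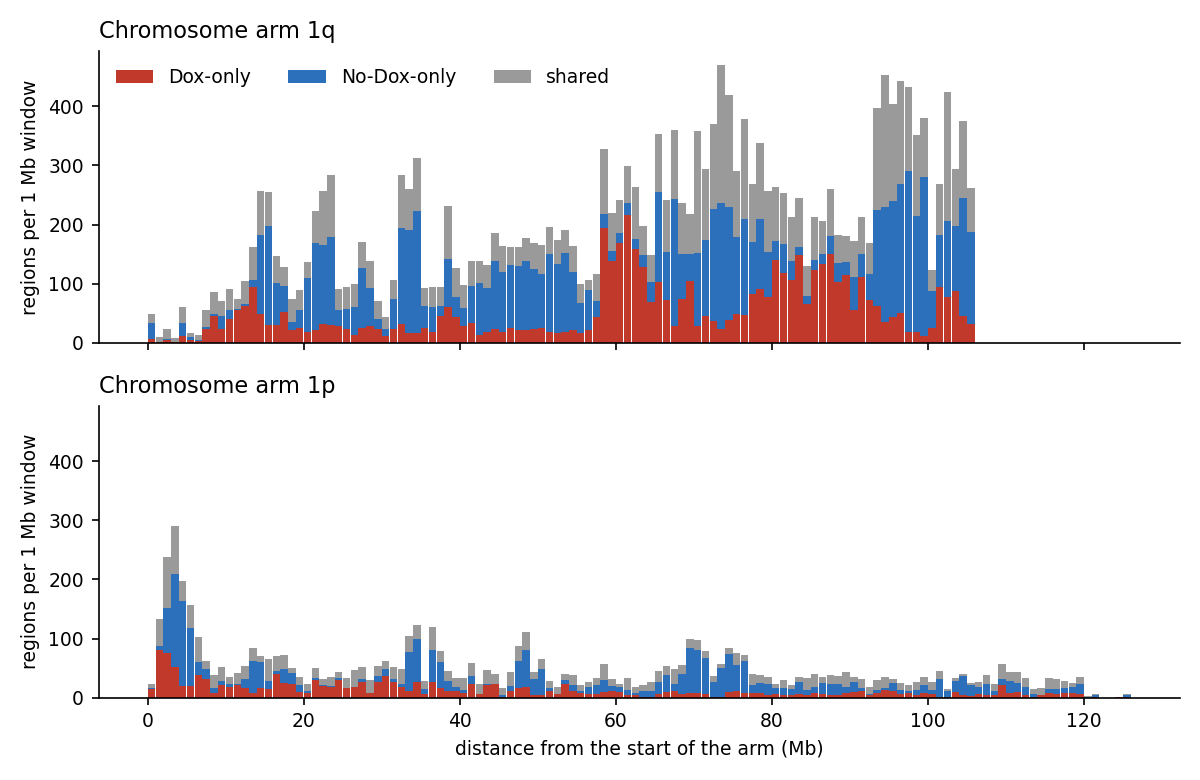
Number of accessible regions in each 1 Mb window of 1q (top) and 1p (bottom) against the distance from the start of the arm, as bars stacked by class (Dox-only at the bottom, then No-Dox-only, then shared). The fullest window of 1q held 470 regions and that of 1p 291, and the first 10 Mb of 1q averaged 40.1 regions per Mb.

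The density was not even along the arm. The first 10 Mb of 1q had 40.1 regions per Mb, below the mean of 1p, and the rest of the arm had 221 per Mb. Over the 21 windows of 5 Mb, the values ran between 31.6 per Mb, in the window that starts at 143 Mb, and 402 per Mb, in the window that starts at 238 Mb and holds CHRM3 and FMN2. The window that starts at 213 Mb, with ESRRG, followed with 382 per Mb. Of the 20 densest of 592 windows of the genome, 10 lay on 1q, 5 on chromosome 5, 5 on chromosome 8 and 0 on 1p. The densest window of 1p, at its tip, had 184 per Mb, and 11 windows of 1q lay above it. The median gap between neighbouring regions was 1.59 kb on 1q and 7.79 kb on 1p.

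The surplus over 1p lay away from promoters. Within 1 kb of a coding transcription start site (TSS), 1q had 9.69 regions per Mb, 1p had 7.16 and the other chromosomes 5.17, a ratio of 1.35 over 1p. Between 1 and 10 kb the ratio over 1p was 3.77, between 10 and 100 kb it was 4.77, and beyond 100 kb it was 4.87. Coding genes themselves were nearly as dense on both arms, 9.14 per Mb on 1q and 8.52 on 1p. As a share, 4.75% of the regions of 1q lay within 1 kb of a coding TSS, against 14.5% on 1p and 11.3% on the other chromosomes.

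The surplus was also mostly of low fold. The ratio of 1q over 1p was 4.34 (4.15 to 4.54) for folds under 3.5, 5.35 (4.98 to 5.76) between 3.5 and 4, and 5.24 (4.90 to 5.62) between 4 and 5. It was only 1.99 (1.79 to 2.22) between 6 and 8 and 1.91 (1.71 to 2.14) between 8 and 12. At folds of 20 or more it was 6.47 (4.96 to 8.56), with 356 regions on 1q and 65 on 1p. The median fold of a Dox peak was 3.84 on 1q, 4.29 on 1p and 4.29 on the other chromosomes. For No Dox peaks the medians were 3.60, 3.81 and 3.81. Folds were whole multiples of 0.226 in the Dox list and 0.212 in the No Dox list within 0.02 of a step, and both lists began at 12 steps. On 1q, 37.0% of the Dox peaks had at most 15 steps, against 29.1% on 1p and 27.3% on the other chromosomes. For No Dox peaks the shares were 31.4%, 28.7% and 32.1%. These are shares within each stretch, and by density the weakest regions were more frequent on 1q in both classes: under a fold of 3.5 the ratio over 1p was 4.42 for Dox-only regions, against 4.09 for No-Dox-only ones.

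**Figure D2:**
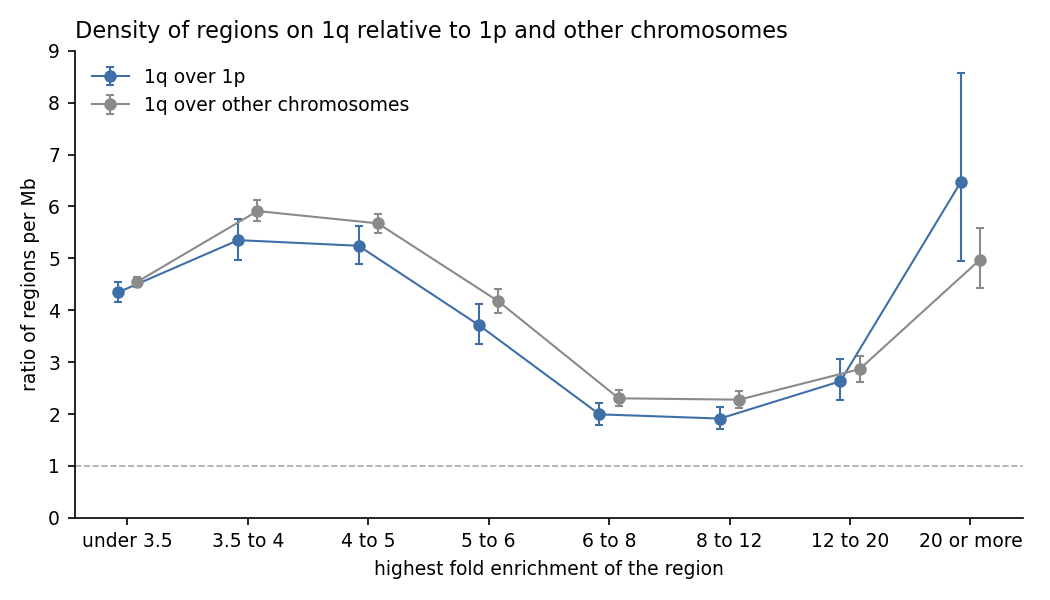
Ratio of regions per Mb of 1q over 1p and over the other chromosomes in bins of the highest fold of a region, with exact 95% intervals of counting error and a dashed line at 1. The ratio over 1p was 5.35 between 3.5 and 4, 1.91 between 8 and 12 and 6.47 at 20 or more.

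The 4 shared regions of highest fold were all at coding promoters. Of the 356 regions with a fold of at least 20, 46.1% lay within 1 kb of a coding TSS, against 72.3% of 65 on 1p. The shared region with the highest fold was at ZNF672, a zinc finger gene near the end of the arm, with 89.5 with Dox and 102 without Dox. TPR, a protein of the nuclear pore basket, had 54.5 with Dox and 73.1 without Dox, and DESI2 had 56.7 and 72.9. ADSS2, an enzyme of purine synthesis, had 58.8 with Dox and 70.3 without Dox. All 4 of these promoters had the lower fold in the Dox list, but the 2 lists have separate backgrounds and no error can be set on the difference. Over the 680 shared coding promoters of 1q the median fold was 9.49 with Dox and 9.85 without Dox. On 1p it was 7.46 and 7.63 over 675 promoters, and on the other chromosomes 7.91 and 8.26. A fold of at least 20 was reached by 24.1% of these promoters on 1q, 6.96% on 1p and 11.7% elsewhere. By GC content of the promoter, the medians between 60 and 65% were 10.9 with Dox and 10.8 without Dox on 1q, against 7.69 and 8.26 on 1p. Above 65% they were 7.91 and 6.99 on 1q, against 6.78 and 6.57 on 1p. At 50% GC or less the order of the medians was turned round, with 7.69 with Dox and 8.47 without Dox on 1q over 129 promoters, against 8.14 and 8.69 on 1p over 31. A fold of at least 20 was still reached there by 27.1% on 1q, 9.68% on 1p (3 promoters) and 13.6% elsewhere. Shared regions more than 10 kb from any TSS showed the opposite order, with medians of 4.07 with Dox and 4.24 without Dox on 1q and 4.75 and 5.08 on 1p.

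Promoter folds followed position as well. In the first 10 Mb of 1q, 76 shared coding promoters had medians of 7.01 with Dox and 6.46 without Dox, near those of 1p. In the rest of the arm the medians were 10.4 and 10.8 over 604 promoters. The window that starts at 193 Mb had the highest medians, 26.9 with Dox and 28.7 without Dox over 12 promoters.

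Of the 966 coding genes of 1q, 674 (69.8%, 66.8 to 72.7) had a promoter peak in both conditions, against 65.7% on 1p and 63.1% on the other chromosomes. A promoter peak with Dox alone was seen for 59 genes (6.11%, 4.68 to 7.81), against 5.75% of all coding genes of the genome. A promoter peak in No Dox alone was seen for 72 genes (7.45%, 5.88 to 9.29), against 3.98% of all coding genes and 3.19% (2.22 to 4.44) on 1p. Of those 72 genes, 29 were olfactory receptors and 9 were markers of blood and immune cells, both described below.

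By class, the Dox list alone gave 5556 regions of 1q, the No Dox list alone gave 8615, and 7402 were found in both. Those of the Dox list alone were 25.8% of the arm, against 22.3% over the whole genome, and those of the No Dox list alone were 39.9%, against 45.3%. Among condition-only regions, meaning both of those classes, the Dox-only share was 39.2% (38.4 to 40.02) on 1q and 39.7% (38.2 to 41.2) on 1p, a difference of -0.49 percentage points (-2.21 to 1.21). The other chromosomes had 31.6%, and 1q lay 7.58 points above them (6.72 to 8.45). With lists of equal length the share on 1q was 50.5%, and the difference from 1p was 0.20 points. The difference from 1p depended on the tip of 1p, since without its first 30 Mb 1q lay 5.76 points above 1p.

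A region is also condition-only when its second peak only just missed the threshold, so strong regions were counted too, those with a peak that reached the median fold of all peaks in its list (4.07 for Dox, 3.81 for No Dox). Among 9708 strong regions of 1q, 1152 (11.9%) were of the Dox-only class, against 13.5% of all strong regions of the genome, and 2521 (26.0%) were No-Dox-only, against 27.4%. The Dox-only share of strong condition-only regions was 31.4% (29.9 to 32.9) on 1q, 39.1% (36.2 to 41.9) on 1p and 33.0% on the other chromosomes, so 1q lay 7.70 points below 1p (-10.9 to -4.53). At folds of at least 6, a bound chosen after the values were seen, 129 Dox-only against 142 No-Dox-only regions remained on 1q, a share of 47.6% (41.5 to 53.7), against 51.4% on 1p and 48.3% elsewhere. At that height 10.2% of the regions of 1q were condition-only, against 13.04% on 1p and 16.47% on the other chromosomes. Between folds of 4 and 6 the values were 44.49%, 55.04% and 57.7% in the same order. In shared regions the median log2 ratio of the Dox fold over the No Dox fold was -0.08 on 1q, -0.07 on 1p and -0.08 elsewhere.

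The Dox-only share alternated along 1q, as it did along 1p. In the window that starts at 203 Mb, which holds NFASC and LRRN2, there were 740 Dox-only against 109 No-Dox-only regions, a share of 87.2% (84.7 to 89.3). In the window that starts at 238 Mb, there were 144 against 1148, a share of 11.2% (9.48 to 12.99). The No Dox list was the longer, with 117740 peaks against 84353, and the Dox-only share over the whole genome was 33.0%. A share of 50% is therefore not a neutral level. Of 21 windows, the interval lay above 50% in 6 and below it in 14. Of 25 windows of 1p it lay above in 4 and below in 14, and the shares there ran between 9.43% and 88.3% in the windows with at least 50 condition-only regions, so the range was not wider on 1q. Besides the window at 203 Mb, the 6 were those that start at 148 Mb (73.5%), 153 Mb (64.2%), 198 Mb (68.8%), 223 Mb (80.6%) and 228 Mb (84.1%). Low shares were found in the windows that start at 173 Mb (14.3%), 193 Mb (14.9%), 213 Mb (16.9%) and 188 Mb (17.1%). Strong regions alternated in the same places, with 174 Dox-only against 21 No-Dox-only in the window at 203 Mb and 24 against 460 in the window at 238 Mb. Over windows of 1 Mb with at least 20 condition-only regions, 18 had a share of at least 80% and 34 a share of at most 20%. Neighbouring condition-only regions were of the same class in 70.0% of 14170 pairs on 1q, where the share of each class alone gives 52.3%. The same held on 1p (67.7%, against 52.1%) and on the other chromosomes (69.0%, against 56.8%).

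**Figure D3:**
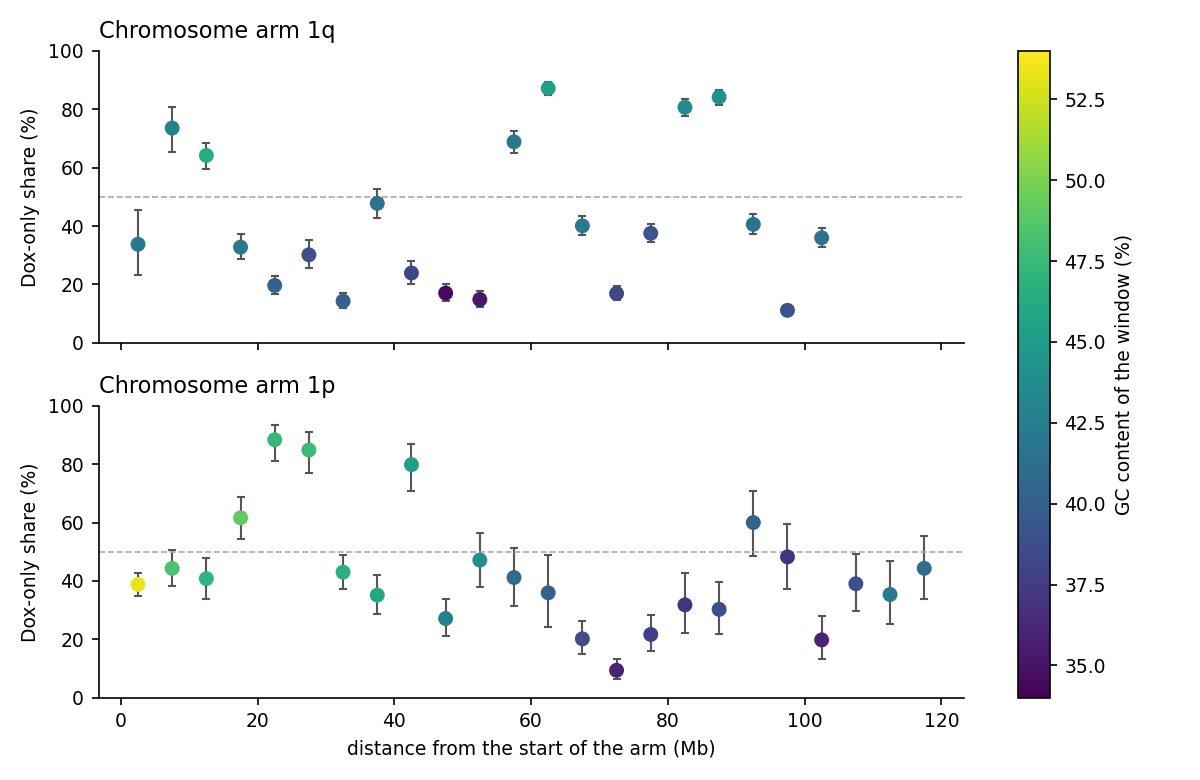
Share of Dox-only regions among those of 1 condition in 5 Mb windows of 1q (top) and 1p (bottom) with exact 95% intervals, against the distance from the start of the arm. Colour gives the GC content of the window, and only windows with at least 50 condition-only regions are drawn. Shares on 1q lay between 11.2% and 87.2%, with 6 windows above 50%.

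Shared regions moved with the same windows. The median log2 ratio of Dox over No Dox was 0.18 in the window that starts at 203 Mb, 0.19 at 198 Mb and 0.17 at 228 Mb, and -0.24 at 238 Mb and -0.20 at 213 Mb. The peak density of each list shows the same, with 210 Dox peaks and 87.4 No Dox peaks per Mb in the window at 203 Mb, against 202 and 382 in the window at 238 Mb. Over the whole arm the Dox peaks thus ran between 21.4 and 256 per Mb and the No Dox peaks between 26.2 and 382 per Mb.

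GC content moved with the alternation. Across the 21 windows of 1q, GC content and the Dox-only share had a Pearson r of 0.80 and a Spearman rho of 0.82. Across 25 windows of 1p the values were 0.54 and 0.59. All windows come from the same 2 lists, so these are descriptions and carry no p. GC content and density had an r of -0.14 on 1q. By single regions, the Dox-only share on 1q was 18.2% (16.1 to 20.6) for regions of at most 35% GC, 29.0% between 40 and 45%, 45.5% between 45 and 50%, 63.6% between 50 and 55%, and 79.0% (74.5 to 83.0) above 60%. At 35% GC or less 1q was lower than 1p, with a difference of -9.315 points (-17.9 to -1.92), and between 40 and 45% the difference was 0.51 points (-3.33 to 4.13). Between 50 and 55% GC, 1q lay 29.0 points above 1p (24.9 to 33.0) and 31.1 points above the other chromosomes (28.8 to 33.4). Between 55 and 60% the differences were 28.1 points (23.3 to 32.8) and 27.8 points. Among strong regions, 1q lay above 1p only from 50% GC upwards, with a share of 57.6% (53.0 to 62.1) on 1q and 29.8% (23.4 to 36.9) on 1p between 50 and 55%. Below 50% the strong regions of 1q had the lower share in every bin: 15.0% on 1q against 33.3% on 1p at 35% GC or less, 13.7% against 32.2% between 35 and 40%, 18.3% (16.02 to 20.8) against 36.4% (30.3 to 42.9) between 40 and 45%, and 33.8% against 40.8% between 45 and 50%. The 2 arms also differed in the GC content of their regions: on 1q 26.4% of them lay between 40 and 45% GC and 3.58% above 60%, where 1p had 14.6% and 25.2%. The part of GC content in the balance of the conditions was not tested.

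**Figure D4:**
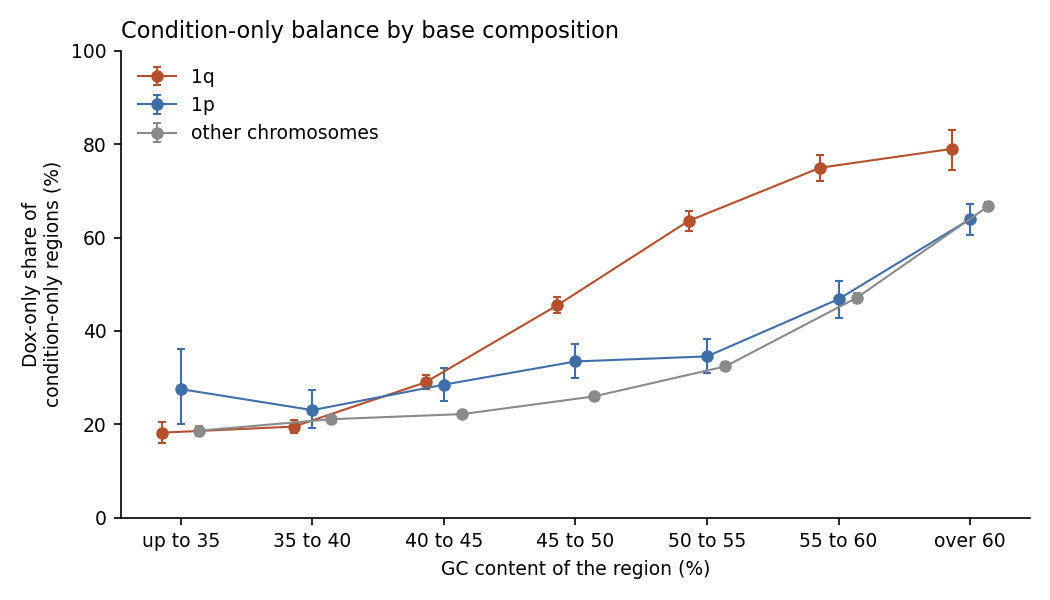
Dox-only share of condition-only regions against the GC content of the region for 1q, 1p and the other chromosomes, with exact 95% intervals of counting error, over all regions and not strong ones alone. From 45% GC upwards the points of 1q lay above both others, for example 63.6% on 1q, 34.6% on 1p and 32.4% elsewhere between 50 and 55%.

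Distance from genes moved with the share too. On 1q the Dox-only share was 55.8% (50.4 to 61.1) within 1 kb of a coding TSS, 53.7% between 1 and 10 kb, 44.9% between 10 and 100 kb and 24.0% (22.8 to 25.2) beyond 100 kb. The same order was seen on 1p, with 64.8%, 62.9%, 39.3% and 24.9%.

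TEAD motifs were rarer in the Dox-only regions of 1q than elsewhere. Among strong Dox-only regions, 178 of 1152 (15.45%, 13.4 to 17.7) held ACATTCC or GCATTCC within 100 bp of the summit, against 26.0% (22.0 to 30.3) on 1p and 27.8% on the other chromosomes. The difference from 1p was -10.6 percentage points (-15.2 to -6.12). Among strong No-Dox-only regions the share was 5.43% (4.58 to 6.39) on 1q and 5.56% on 1p. Windows of the same length tiled without overlap over 1q gave 5.198%, and all regions of the series 8.87%. The reversed motif, CCTTACA or CCTTACG, was held by 2.52% of the strong Dox-only regions of 1q and by 2.34% of the strong No-Dox-only regions. A match is only a match of letters and does not show a bound factor.

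Of 3 fold bins compared, the interval of the difference from 1p lay below 0 only between 4 and 6. For folds under 4 the TEAD share of Dox-only regions was 6.63% on 1q and 7.67% on 1p, and between 4 and 6 it was 11.8% (9.91 to 13.97) on 1q and 22.6% (18.4 to 27.3) on 1p. At folds of at least 6 it was 44.2% (35.4 to 53.2) on 1q, 39.1% (29.1 to 49.9) on 1p and 41.4% (39.2 to 43.5) elsewhere, and the difference from 1p, 5.06 points, had an interval of -8.09 to 17.8. By base composition, the share in strong Dox-only regions was 31.4% on 1q and 33.9% on 1p up to 40% GC, and 8.32% on 1q and 19.3% on 1p above 50% GC, where 553 of the 1152 lay.

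**Figure D5:**
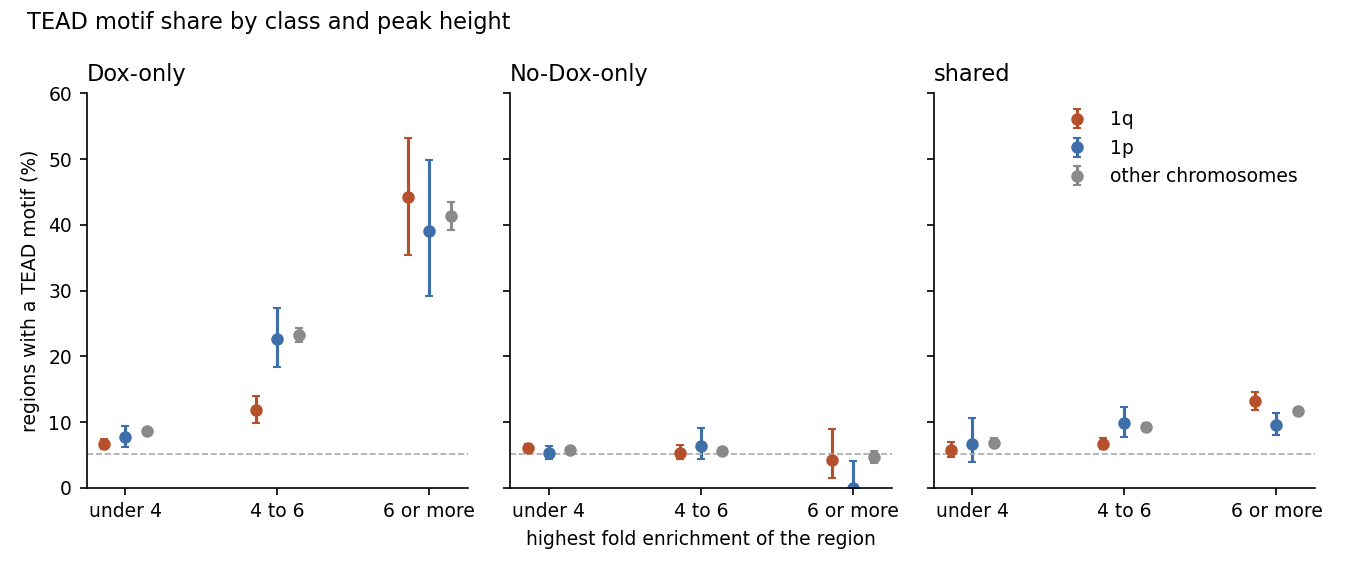
Share of regions with a TEAD motif, by class (Dox-only, then No-Dox-only, then shared), within 100 bp of the summit in 3 bins of fold, for 1q, 1p and the other chromosomes, with exact 95% intervals. The dashed line is the share in all tiled windows of 1q, 5.198%. In Dox-only regions between 4 and 6 the share was 11.8% on 1q and 22.6% on 1p, and at 6 or more the 3 intervals overlap.

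AP-1 motifs (TGACTCA or TGAGTCA) were rarer in the No-Dox-only regions of 1q than elsewhere. They were held by 11.1% (9.87 to 12.4) of the strong No-Dox-only regions of 1q, against 24.1% (20.9 to 27.4) on 1p, 24.0% elsewhere and 3.13% of the tiled windows of 1q. In strong Dox-only regions the shares were 6.68% on 1q and 14.4% on 1p. At folds of at least 6 the AP-1 share of No-Dox-only regions was 30.3% (22.9 to 38.5) on 1q and 43.7% (33.1 to 54.7) on 1p, with a difference of -13.4 points (-26.0 to -0.64). The RUNX motif TGTGGTT was found in 4.34% of the strong regions of 1q seen with Dox only and 4.28% of those seen in No Dox only, near the 3.83% of the tiled windows. On the other chromosomes 7.58% of the strong Dox-only regions held it, and the difference of 1q from them was -3.24 points (-4.43 to -1.79). Over all regions of the series AP-1 was held by 13.1% and RUNX by 4.81%.

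The 4 highest Dox-only regions of the arm were all away from coding promoters. The highest, with a fold of 27.8, lies at 166814059 to 166815309, 24.6 kb from the TSS of POGK, and is intergenic. The next, with a fold of 17.6, lies at 214349362 to 214350575 inside PTPN14, a phosphatase gene of the Hippo network, with SMYD2 as the nearest coding TSS at 19.0 kb. They were followed by regions at 188090228 (fold 16.05), 1262 kb from PLA2G4A, and at 223330937 inside SUSD4 (fold 15.6). The region near POGK and the one inside SUSD4 held a TEAD motif, and the region inside PTPN14 and the one at 188090228 did not. Among No-Dox-only regions the highest folds were 13.98 at 194812721, 1627 kb from B3GALT2, 13.1 at 218944974, 229 kb from LYPLAL1, and 12.3 at 175206486, 13.96 kb from KIAA0040. A region at 244435824 inside ADSS2 had 11.9, and a region at 207740037, 11.7 kb from CD46, had 10.8.

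Each region within 100 kb of a coding TSS was given to the gene of the closest one, which took in 14042 regions and 900 of the 966 genes. The other 7531, 34.9%, lay farther away. Of the 966 genes, 422 had more Dox-only than No-Dox-only regions, 310 had fewer and 234 had as many. Together they had 4356 Dox-only against 4807 No-Dox-only regions, a share of 47.5%, and the lists below are set against this value. Large genes collect many regions, so counts are not levels of a gene. Apart from the olfactory receptors, no list was set against the share of the windows around its genes, so its share cannot be told apart from that of its surroundings.

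The genes with most regions were mostly on the No Dox side, meaning that they had more No-Dox-only than Dox-only regions. The arm as a whole was on that side too, with a Dox-only share of 39.2%, so an even split is not the level to compare with. ESRRG, an orphan nuclear receptor (minus strand, 216503246 to 217137755), had 294 regions, of which 16 were Dox-only and 135 No-Dox-only. CHRM3, the muscarinic acetylcholine receptor M3 (plus strand, 239386565 to 239915452), had 269, with 30 Dox-only against 136 No-Dox-only. FMN2, an actin nucleator, had 14 Dox-only against 98 No-Dox-only regions of 184. SMYD3, a lysine methyltransferase, had 38 and 62 of 153, and KIF26B, a kinesin family gene, had 24 and 43 of 154. DNAH14, an axonemal dynein, was on the opposite side with 67 Dox-only against 35 No-Dox-only regions of 142, in the window that starts at 223 Mb. TNR, which encodes the brain matrix protein tenascin-R, had 20 and 74 of 140.

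Of 19 ion channel and neuronal genes, 7 had more Dox-only regions, 11 had fewer and 1 had as many. Their share was 30.1% (27.0 to 33.3), with 252 Dox-only against 585 No-Dox-only regions. KCNH1, a voltage-gated potassium channel, had 10 and 91, RYR2, the cardiac ryanodine receptor, had 9 and 59, and CACNA1E, a calcium channel subunit, had 38 and 58. NFASC, a neuronal cell adhesion molecule in the window at 203 Mb, had 59 Dox-only against 10 No-Dox-only regions, and its neighbour LRRN2 had 48 and 5. KCNH1, RYR2 and CACNA1E all have a promoter peak in both lists, with folds of 8.82 with Dox and 16.9 without Dox for KCNH1, 5.65 and 4.45 for RYR2, and 4.97 and 5.08 for CACNA1E.

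Olfactory receptor genes were mostly on the No Dox side, as were the stretches that hold them. Of the 58 on 1q, 0 had more Dox-only than No-Dox-only regions, 54 had fewer and 4 had as many, and their share was 12.6% (9.50 to 16.2). Promoter peaks were seen in No Dox alone for 29, with Dox alone for 3, in both for 14 and in neither for 12. Over all coding genes of 1q the shares were 7.45%, 6.11%, 69.8% and 16.7% in the same order. OR10J1 had 3 Dox-only against 11 No-Dox-only regions and a promoter peak in No Dox alone at a fold of 3.60. OR14I1 had a promoter peak in both, at 4.52 with Dox and 4.45 without Dox, and OR2B11 at 7.23 and 7.20. Over all regions, the 1 Mb windows that start at 158, 247 and 248 Mb, where most of these genes lie, had shares of 15.2%, 18.8% and 17.1%. Receptors of a cluster are near neighbours, so these genes are not independent of each other.

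Markers of blood and immune cells were mostly on the No Dox side too. Of 25 genes, 2 had more Dox-only regions, 18 had fewer and 5 had as many, with a share of 26.8% (20.9 to 33.3). Promoter peaks were seen in No Dox alone for 9, in both for 9, with Dox alone for 0 and in neither for 7, among them PTPRC, the common leukocyte antigen. Over all coding genes of 1q, 7.45% had one in No Dox alone and 69.8% in both. FCRL3, an Fc receptor-like gene, had 0 Dox-only against 14 No-Dox-only regions and a promoter peak in No Dox alone at 3.81, and MNDA, an interferon-inducible gene of myeloid cells, had 4 and 17 and a fold of 3.18. FCRL5 had 7 and 15, with promoter folds of 3.16 with Dox and 2.75 without Dox. CD247, the zeta chain of the T cell receptor, had 11 Dox-only against 4 No-Dox-only regions and promoter folds of 9.49 and 9.74.

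The YAP/TAZ targets of the arm were evenly split. All 8 promoters were open in both conditions, against 69.8% over all coding genes of 1q. Of the 8 genes, 4 had more Dox-only regions and 4 had fewer, with 62 and 63 in all (49.6%, 40.5 to 58.7). ATF3, a stress-induced factor of the AP-1 group, had 13 Dox-only against 5 No-Dox-only regions and promoter folds of 43.4 with Dox and 44.1 without Dox. NEK2, a centrosomal kinase, had 13 and 7, with 21.7 and 23.1. RGS2, a regulator of G protein signalling, had 4 and 18, with 27.4 and 34.3, and TGFB2, a ligand of the TGF-beta pathway, had 8 and 9, with 11.98 and 12.7.

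The list of genes discussed with 1q gain had a higher share than all coding genes of the arm (47.5%), as did the cell cycle list with CDC42BPA counted in it. Promoter peaks with and without Dox were found for 69.8% of all coding genes of 1q and for all 14 genes of the cell cycle list. Their share was 56.8% (49.0 to 64.4), with 9 genes that had more Dox-only regions and 4 that had fewer. BTG2, an antiproliferative gene, had 15 Dox-only against 1 No-Dox-only region. CDC42BPA, a CDC42-binding kinase, had 19 of the 96 Dox-only and 5 of the 73 No-Dox-only regions of the list. It was counted in this list although it is not a cell cycle gene in the narrow sense, and the share without it was not computed. Even with it counted, the interval of the list began at 49.0%, close to 47.5%. EXO1, a DNA exonuclease, had 6 and 31, and its promoter had a fold of 24.4 with Dox and 52.5 without Dox. Of 22 genes discussed with 1q gain in breast cancer, 21 had a promoter peak in both, against 69.8% over all coding genes of 1q. The Dox-only share of the 22 genes was 59.3% (52.8 to 65.6). PARP1, the poly(ADP-ribose) polymerase of DNA repair, had 24 Dox-only against 4 No-Dox-only regions, and H3-3A, a histone H3.3 gene, had 12 and 2.

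Complement regulators and the interleukin cluster had a share of 63.2% (54.4 to 71.3). More Dox-only than No-Dox-only regions were seen for 11 of these 16 genes, against 422 of all 966 coding genes of 1q. CD46, a complement regulator of the cell surface, had 12 Dox-only against 3 No-Dox-only regions, and IL19, a cytokine of the IL10 family, had 12 and 4. CD55, which speeds the decay of complement convertases, had 5 and 7 with promoter folds of 37.98 with Dox and 39.8 without Dox.

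Laminin and cell adhesion genes had a share of 43.2% (36.3 to 50.3). More Dox-only than No-Dox-only regions were seen for 8 of these 14 genes, against 422 of all 966 coding genes of 1q. PKP1, a desmosomal plakophilin, had 20 Dox-only against 4 No-Dox-only regions and a promoter peak with Dox alone at a fold of 3.62. NID1, a basement membrane nidogen, had 15 and 27 and a promoter peak with Dox alone at 5.199. HMCN1, an extracellular hemicentin, had 4 and 24 of 48.

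The 32 listed genes of the epidermal differentiation complex and S100 family had few regions each. Their median was 2 regions against 7 over all genes of the arm, with 33 Dox-only against 22 No-Dox-only regions in all (60%, 45.9 to 73.0). Each region goes to 1 gene, so a count per gene is not a density. The 1 Mb windows that start at 152 and 153 Mb, which hold CRNN, RPTN and S100A6, had 70 and 91 regions. The whole arm had 204 per Mb and 1p had 49.4. S100A10, a partner of annexin A2, had a promoter peak at 12.7 with Dox and 12.5 without Dox, and S100A6, a calcium-binding protein, at 11.98 and 7.41. CRNN and RPTN, which encode cornified envelope proteins, had no promoter peak in either condition.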

How the data were processed

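Chromatin accessibility of 4 ATAC-seq samples (2 Dox, 2 No Dox) was taken from 2 peak lists. The authors used BWA for alignment (hg38) and MACS2 for peaks (FDR 0.05), run on the replicates of a condition together. Tool versions are not given in the sources used here. The fold enrichment of each peak is the authors' ratio of signal to background, and −log10 of the q-value was deposited with it. Peaks of the autosomes and chromosome X (202033 of 202093) that overlapped or touched were merged. Coding genes and TSSs came from GENCODE 44, sequences from hg38 (pysam 0.24.0, samtools 1.23.1). Shares have exact Clopper-Pearson intervals, differences Newcombe intervals and density ratios exact conditional intervals, all at 95%. With pooled replicates no p-value was computed. Genes were named by a rule: up to 4 members of each list and the 10 genes of the arm with most regions, the genes nearest to the 5 highest regions of each class, and 2 genes each in the windows of the highest and lowest Dox-only share. Some genes and sequences that the rule names are not reported here. The members and lists were chosen with earlier results of these data known. The merging, the motif search and the intervals were tested on simulated data. Alternatives were other q-values, lists of equal length, strong regions only, other overlap and merging, other ends of the arms, every line counted and a narrower motif window. Scripts ran in Python 3.11.15 with scipy 1.17.1, pandas 2.3.3, numpy 2.4.6 and, for plots, matplotlib 3.10.9.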

Additional observations from a re-analysis of the deposited data

How the results depend on the processing

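No paired analysis was possible because the authors pooled the replicates of each condition. With 1 list per condition no value has a replicate spread, depth is unknown, and weak peaks near the threshold decide many condition-only calls. Of 75 values recomputed under alternatives, 43 stayed within the interval of the value reported. A fold of at least 6 and 1q without its first 10 Mb alone were chosen after the data were seen. For values outside the interval, the cause was not tested.

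The ratio of regions per Mb of 1q over 1p was 3.59 at a q-value of 1e-05, 3.76 for strong regions, 4.25 with an overlap of at least 50% of either peak, 5.00 with 1p without its first 30 Mb, 4.28 with every line counted, 2.30 at a fold of at least 6 and 4.47 with 1q without its first 10 Mb. The Dox-only share on 1q was 50.5% with lists of equal length, 31.4% for strong regions, 40.4% with the stricter overlap, 42.1% with 1q without its first and last 10 Mb, and 47.6% at a fold of at least 6. Its difference from 1p was -4.56 points at a q-value of 1e-05, -7.70 for strong regions, 5.76 with 1p without its first 30 Mb, 2.40 with 1q without its first and last 10 Mb, and -3.80 (-13.1 to 5.59) at a fold of at least 6, so its sign was not stable. The condition-only share of the regions of 1q, 65.7% as reported, was 60.3% at a q-value of 1e-05, 64.5% with lists of equal length, 37.8% for strong regions, 70.2% with the stricter overlap, 63.4% with peaks within 200 bp merged and 10.2% at a fold of at least 6. The difference of 1q from 1p in the median log2 ratio of shared regions was -0.0095 as reported, -0.048 for strong regions, 0.034 with 1p without its first 30 Mb, and -0.054 at a fold of at least 6. The TEAD share of strong Dox-only regions was 13.4% at a q-value of 1e-05, 8.46% for all Dox-only regions, 9.55% within 50 bp of the summit and 44.2% at a fold of at least 6. For No-Dox-only regions it was 2.70% within 50 bp and 4.23% at a fold of at least 6.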
